A study of Mus musculus with 5 samples.

Results

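The untreated BV-2 library, labelled as the normal control, is described here across all genes it lists. It was chosen by its treatment label alone and is 1 of 5 libraries in the series. BV-2 is a mouse microglial line, made by immortalising microglia with a retrovirus that carries oncogenes, so it is an immortal line and not a cell taken fresh from brain. The cells of this library were grown in DMEM with serum and carry no treatment in the labels, neither urban particulate matter nor trazodone, and the labels do not say whether a vehicle was added. The other 4 libraries were exposed to particles and were not analysed here. RNA was read by QuantSeq, an oligo-dT primed 3′-end assay, as single-end reads of 75 bp.

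Microglia are the resident macrophages of the brain. They depend on signalling through the receptor CSF1R and on the transcription factor PU.1, and in the healthy brain transforming growth factor beta holds them in a homeostatic state marked by P2RY12, TMEM119 and SALL1. In culture and near lesions that state is typically given up for one rich in lysosomal and lipid-handling genes. Genes of the macrophage lineage as a whole are shared with other tissue macrophages.

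Levels are given as CPM, each gene's count scaled to a library of 1e6 counts, from an actual sum of 7582187. Parentheses hold 95% exact Poisson counting intervals. With 1 library there was no replicate, so an interval covers counting error only and no statement below rests on a test. At this depth 1 count is 0.132 CPM, and for a count of 0 the one-sided limit of 3 counts, or 0.396 CPM, is used. A 3′-end assay yields about a fixed number of reads per transcript whatever its length, and the values showed little trend with length. Over the protein-coding genes at 1 CPM or more, cut into 4 classes of near equal size by transcript length, the medians from short to long were 29.6, 25.1, 28.9 and 36.4 CPM.

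Of 40879 symbols listed, 15621 had a count and 11981 stood at 1 CPM or more, which is 29.3% of all symbols. Among 20346 protein-coding symbols 10545 stood at 1 CPM or more, or 51.8%, and 8161 were at 0. That 51.8% is the background for every count of protein-coding list members at 1 CPM or more given below. The 10 most abundant symbols took 17.9% of the counts (Clopper-Pearson interval 17.84 to 17.90), 552 symbols held the first 50%, and 4496 symbols held 90%. Protein-coding genes of the nucleus took 82.3% of counts, mitochondrial ribosomal RNA 7.94%, mitochondrial messenger RNA 3.74% and RNA that RefSeq types as long non-coding 1.41%. Symbols not matched to RefSeq took 4.26%. Most of their counts were of Gm26917 (37345 CPM), which the 1.41% therefore leaves out. Small nucleolar RNA took 0.117%.

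**Figure D1:**
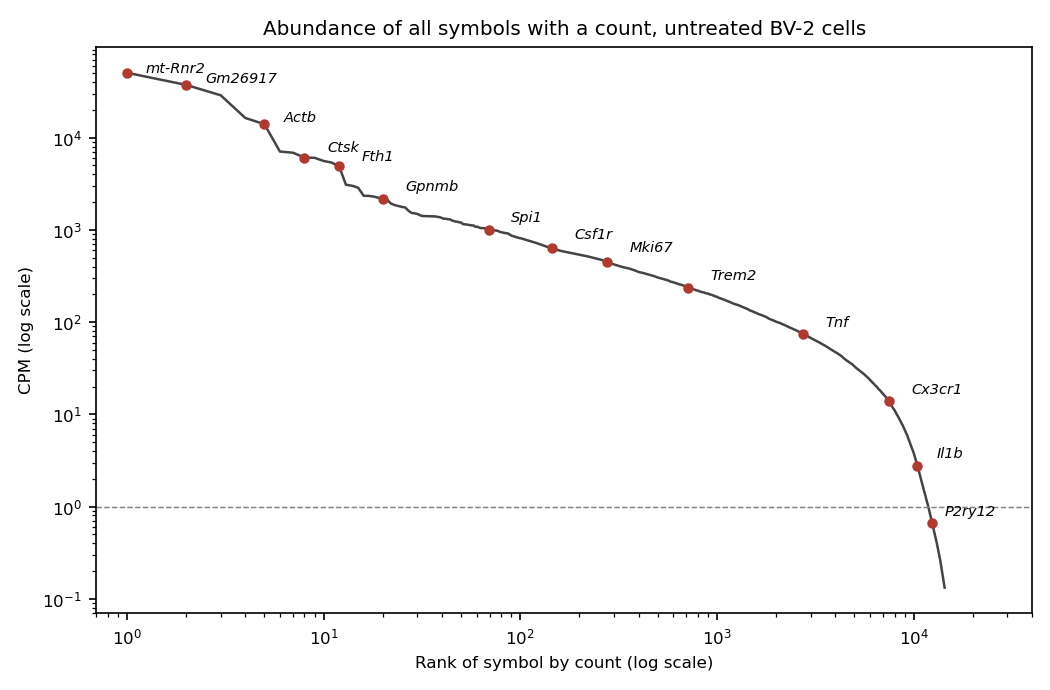
Level of each symbol with a count (CPM, log scale) against its rank by count (log scale) in the untreated library, with 14 genes marked by points and a dashed line at 1 CPM. The marked points run from mt-Rnr2, Gm26917 and Actb at ranks 1, 2 and 5 downward, Ctsk stands at rank 8, Spi1 at rank 69 and Csf1r at rank 145, and P2ry12 lies below 1 CPM.

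The sequences below are the start regions of 4 genes that the description turns on, shown as examples of abundant and little counted myeloid genes and not for a contrast of their motifs. Ctsk encodes the most abundant cathepsin here and Gpnmb a membrane glycoprotein of lysosome-rich macrophages. Cd68 is a textbook macrophage marker, and P2ry12, at 5 counts, encodes the ADP receptor of homeostatic microglia. Each runs 5′ to 3′ from 250 bases before to 50 bases after the start site that RefSeq gives on build GRCm38.p6. Capitals mark matches to the core of the PU.1 motif, GAGGAA, on either strand, or to the letters TCACGTG or TCATGTG, a form of the E-box bound by the MITF and TFE factors.
Ctsk, chr3:95498960-95499259, plus strand: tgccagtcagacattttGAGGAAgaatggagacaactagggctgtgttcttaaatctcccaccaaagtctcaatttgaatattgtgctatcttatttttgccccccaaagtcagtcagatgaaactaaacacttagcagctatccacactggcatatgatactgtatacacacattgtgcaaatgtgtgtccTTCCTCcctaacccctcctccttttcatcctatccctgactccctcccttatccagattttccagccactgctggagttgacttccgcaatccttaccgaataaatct
Gpnmb, chr6:49036268-49036567, plus strand: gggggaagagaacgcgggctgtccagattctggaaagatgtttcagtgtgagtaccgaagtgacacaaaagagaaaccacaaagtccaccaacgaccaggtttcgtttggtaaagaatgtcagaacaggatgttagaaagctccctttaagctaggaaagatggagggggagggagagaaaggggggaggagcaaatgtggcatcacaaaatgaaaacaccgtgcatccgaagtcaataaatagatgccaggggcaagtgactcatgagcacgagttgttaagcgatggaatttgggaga
Cd68, chr11:69666121-69666420, minus strand: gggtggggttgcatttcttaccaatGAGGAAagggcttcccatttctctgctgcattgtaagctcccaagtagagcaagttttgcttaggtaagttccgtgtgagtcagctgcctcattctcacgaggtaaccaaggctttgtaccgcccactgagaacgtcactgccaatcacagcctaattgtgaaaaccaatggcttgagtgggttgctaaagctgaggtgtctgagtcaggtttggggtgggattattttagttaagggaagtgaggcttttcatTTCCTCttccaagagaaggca
P2ry12, chr3:59262936-59263235, minus strand: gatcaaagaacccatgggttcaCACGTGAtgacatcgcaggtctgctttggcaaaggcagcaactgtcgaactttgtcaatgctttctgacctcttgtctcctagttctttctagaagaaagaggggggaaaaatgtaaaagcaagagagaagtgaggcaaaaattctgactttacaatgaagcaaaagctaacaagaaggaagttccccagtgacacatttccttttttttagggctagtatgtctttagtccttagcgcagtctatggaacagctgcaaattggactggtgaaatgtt

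The PU.1 core occurred 2 times in the Ctsk window and 2 times in the Cd68 window, and neither in that of Gpnmb nor in that of P2ry12. The E-box letters occurred in the P2ry12 window alone among these 4. Over 27025 genes with such a window 28.3% held the PU.1 core and 7.42% the E-box letters. Only 27 of 40 leukocyte and myeloid markers, 26 of 36 homeostatic markers and 26 of 34 lysosomal genes had a window, too few of each list for a share over its members. A match is a description of the letters and not a binding site.

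The most abundant RNAs were those of mitochondria, the cytoskeleton, translation and the lysosome. Mitochondrial ribosomal RNA led, with mt-Rnr2 at 50567 CPM (50407 to 50728) and mt-Rnr1 at 28797. Between them stood Gm26917, a long intergenic RNA in GENCODE M21, at 37345 CPM. The mitochondrial messenger RNAs ND2, ND4, CYTB and ND1, for subunits of respiratory complexes I and III, had 16347, 7074, 6047 and 5367 CPM. Actb, for cytoplasmic beta actin, was the first nuclear messenger RNA at 14008 CPM (13924 to 14093). Pabpc1, which coats poly(A) tails, followed at 6859 CPM, and the nuclear RNA Malat1 had 5588 CPM.

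Lysosomal, iron-storing, lipid-handling and motility genes stood among the 30 leading symbols. They included Ctsk (6075 CPM, 6019.7 to 6131), Fth1 (4888), Ctsd (2861), Grn (2231), Gpnmb (2183), Arpc1b (2135), Cd63 (1929.9), Ftl1 (1858), the leukocyte adaptor gene Fyb (1615), Lpl (1511) and Ctss (1489.7). Other leaders serve protein and RNA handling or the cell skeleton. Ncl, for nucleolin of the nucleolus, had 3084 CPM. The chaperone genes Hsp90ab1 and Hspa5 had 3007 and 1528 CPM. Serbp1, for an RNA-binding protein, had 1775 CPM, the membrane-skeleton gene Basp1 2340.1 and beta tubulin Tubb5 1749.9.

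Lineage markers of leukocytes and macrophages were present without exception. All 40 members of that list stood above 10 CPM, up to 1008 CPM (985 to 1031) for Spi1, which encodes PU.1, and the list median was 201 CPM. For comparison, 7913 of all 20346 protein-coding symbols reached 10 CPM. After Spi1 came Plek, a platelet and leukocyte signalling protein, at 759.8 CPM, the immune receptor adaptor Fcer1g at 728, the lysosomal glycoprotein Cd68 at 658, Csf1r at 630.2 (612 to 648) and Laptm5 at 588 CPM. Tyrobp, the adaptor through which TREM2 signals, had 504 CPM. Ptprc, the pan-leukocyte phosphatase CD45, had 243 CPM, Aif1, known as IBA1, had 243 and Adgre1, the F4/80 antigen, had 206. Itgam and Itgb2, the chains of complement receptor 3, were lower at 89.2 and 46.0 CPM.

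Homeostatic microglial markers spread over the whole range of levels. Of 36 matched, 23 stood at 1 CPM or more, a share of 63.9% that is near the 51.8% of all protein-coding symbols, 6 had counts below 1 CPM and 7 were at 0, with a median of 8.77 CPM. The markers that many macrophages share made up the high end. They were the protease Ctss at 1489.7 CPM, Csf1r at 630.2, the protease inhibitor Cst3 at 509.6, Aif1 at 243 and the lipid receptor Trem2 at 236. Then came the prostaglandin synthase Hpgds at 125 CPM, the selectin ligand Selplg at 89.7, C1qa at 73.6, Bin1 at 66.3, C1qc at 42.3 and the nucleotide receptor P2ry6 at 34.4. Mertk, which takes up dying cells, had 32.4 CPM, Golm1 22.3, the growth factor receptor Tgfbr1 16.6, Cd33 16.6, the fractalkine receptor Cx3cr1 13.8 (11.3 to 16.8) and C1qb 13.6.

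The markers that set microglia apart from other macrophages lay at the low end. Ltc4s, Gas6, Tmem119 and Pros1 had 3.96, 3.17, 3.03 and 2.77 CPM. Tmem119 thus rested on 23 counts, with an interval of 1.92 to 4.55 CPM. P2ry13 had 1.19 CPM (0.543 to 2.25), an interval that spans 1. Below 1 CPM were, among others, Sparc at 0.923, Adgrg1 at 0.923, P2ry12 at 0.659 (0.214 to 1.54, from 5 counts), the fructose transporter Slc2a5 at 0.528 and Slco2b1 at 0.264. Sall1, the transcription factor that maintains microglial identity, had 0 counts, as did Olfml3, Gpr34, Siglech, Crybb1, Lag3 and Upk1b. Fcrls could not be matched to a listed symbol.

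**Figure D2:**
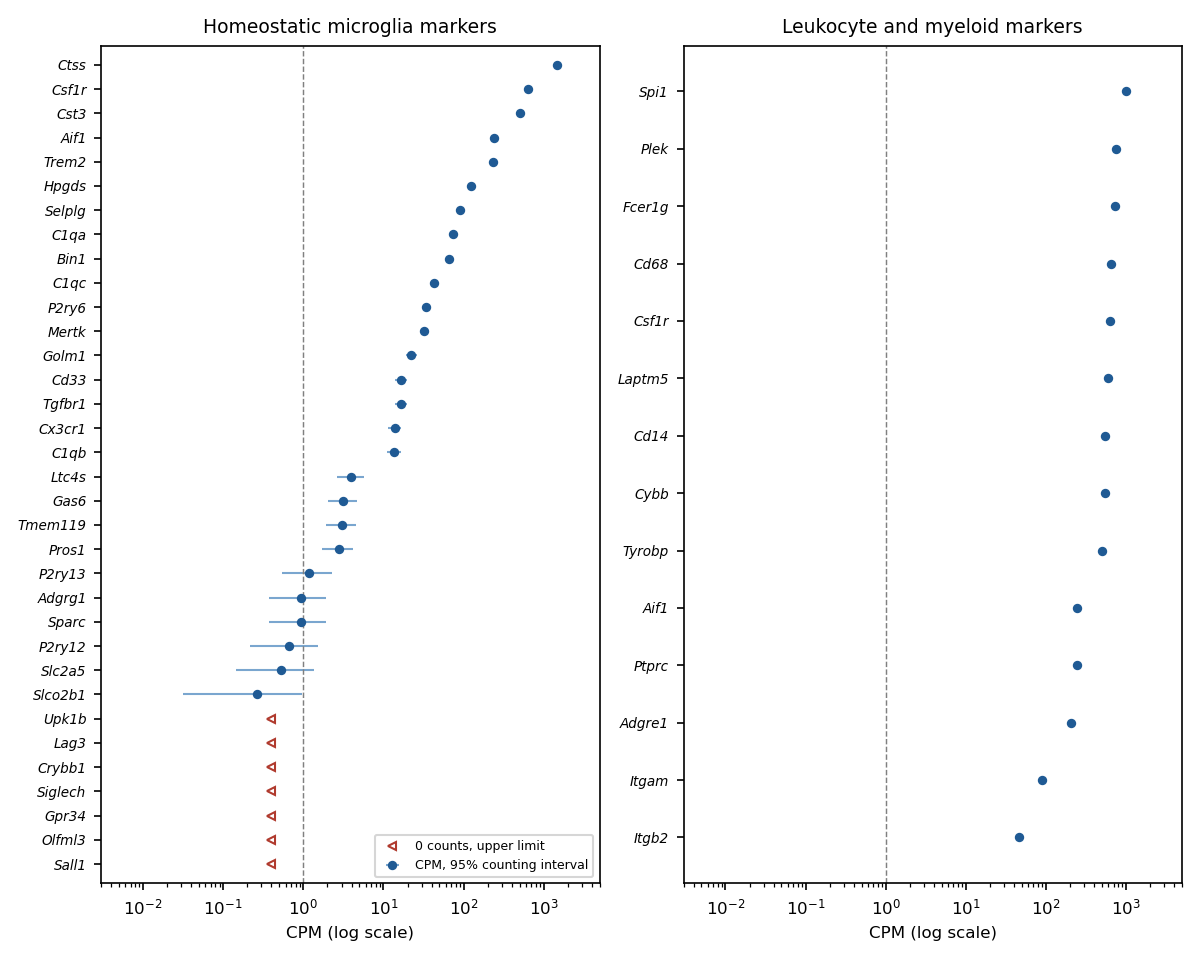
Levels of the homeostatic microglia markers (left) and the leukocyte and myeloid markers (right) named in the text, in CPM on a log axis. Points are CPM with 95% counting intervals, open triangles stand at the one-sided limit of 0.396 CPM for 0 counts, and the dashed line is 1 CPM. All 14 leukocyte and myeloid markers drawn lie right of the line, and 12 of the 34 homeostatic markers drawn lie left of it or at 0.

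Genes of the disease-associated state, which microglia enter around plaques and dying cells, were nearly all present. Of 30 listed, 29 stood at 1 CPM or more and 19 at 100 CPM or more, with a median of 224 CPM. Over all 40879 symbols, 2030 stood at 100 CPM or more. Beyond Fth1, Ctsd, Gpnmb, Cd63 and Lpl, named above, the high members were the protease Ctsb at 1412 CPM, the adhesion gene Cadm1 at 1402, B2m at 1319, the protease inhibitor Timp2 at 983 and the galectin Lgals3 at 938. Some of the state's best-known genes were low. Apoe, the lipid carrier, had 7.78 CPM (5.92 to 10.0), the integrin Itgax 4.88, the chemokine Ccl6 4.88 and the cystatin Cst7 1.45. Axl, a receptor for dying cells, had 0 counts. Spp1, Clec7a and Igf1 lay between, at 98.0, 22.2 and 167 CPM.

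Markers of other cells of the brain and blood were at 0 or low, with few exceptions. Neurons had 0 of 10 markers at 1 CPM or more, fibroblasts 0 of 6, monocytes 0 of 8, mast cells 0 of 6 and epithelia 0 of 5, with summed levels of 1.19, 0.659, 0.132, 0 and 0 CPM. Those at 0 included the neuronal Rbfox3, Snap25, Syt1, Tubb3, Stmn2, Slc17a7 and Gad1, the collagens Col1a1 and Col1a2, Lum, the monocyte genes Ly6c1, Ly6c2, Plac8 and Fn1, the mast cell genes Cpa3, Mcpt4, Cma1, Tpsb2 and Fcer1a, and the epithelial Epcam, Cdh1, Krt5, Krt8 and Krt18. Map2, Gad2, Nefl, Col3a1, Dcn, Pdgfrb and Vcan had counts under 1 CPM. Astrocytes had 1 of 9, the glycolytic gene Aldoc at 67.5 CPM, while Gfap had 0.132 and Aqp4, Aldh1l1, Slc1a2, Slc1a3, Gja1, S100b and Sox9 were at 0. Oligodendrocytes had 3 of 10, Cnp at 13.8, Olig1 at 7.65 and Pdgfra at 1.45 CPM, with the myelin gene Mbp at 0.791 CPM and Mog, Mag, Olig2, Sox10 and Cspg4 at 0. T and NK cells had 1 of 9 (Lck at 2.51 CPM), B cells 1 of 6 (Ms4a1 at 1.06) and granulocytes 1 of 9 (S100a8 at 17.0), with Cd3e, Cd3g, Cd8a, Klrb1c, Ncr1, Nkg7, Pax5, Ighm, Ly6g, Mpo, Ltf, Camp, Ngp, Retnlg and S100a9 at 0. Cd3d, Cd2, Cd79a, Cd79b and Elane had counts under 1 CPM.

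Endothelial cells and border macrophages were the only such lists with more than 3 markers at 1 CPM or more. Endothelial cells had 6 of 9, led by Flt1, a VEGF receptor that monocytes and macrophages also use, at 256 CPM (245 to 268), then Vwf at 15.3, Kdr at 14.8, Egfl7 at 12.8, Tie1 at 7.78 and Pecam1 at 1.85. The defining junction genes Cdh5 and Cldn5 had 0.132 CPM and 0 counts, and Tek was at 0. Border macrophages, which line vessels and meninges, had 6 of 9. Ms4a7, the mannose receptor Mrc1 and the scavenger receptor Stab1 had 169, 125 and 61.5 CPM, and Pf4, Cbr2 and Siglec1 had 21.5, 16.4 and 7.65. Lyve1, Cd163 and F13a1 were at 0. Dendritic cells had 2 of 8, Itgax at 4.88 and Zbtb46 at 3.82 CPM, with Itgae at 0.528 and Flt3, Xcr1, Clec9a, Ccr7 and Cd209a at 0.

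**Figure D3:**
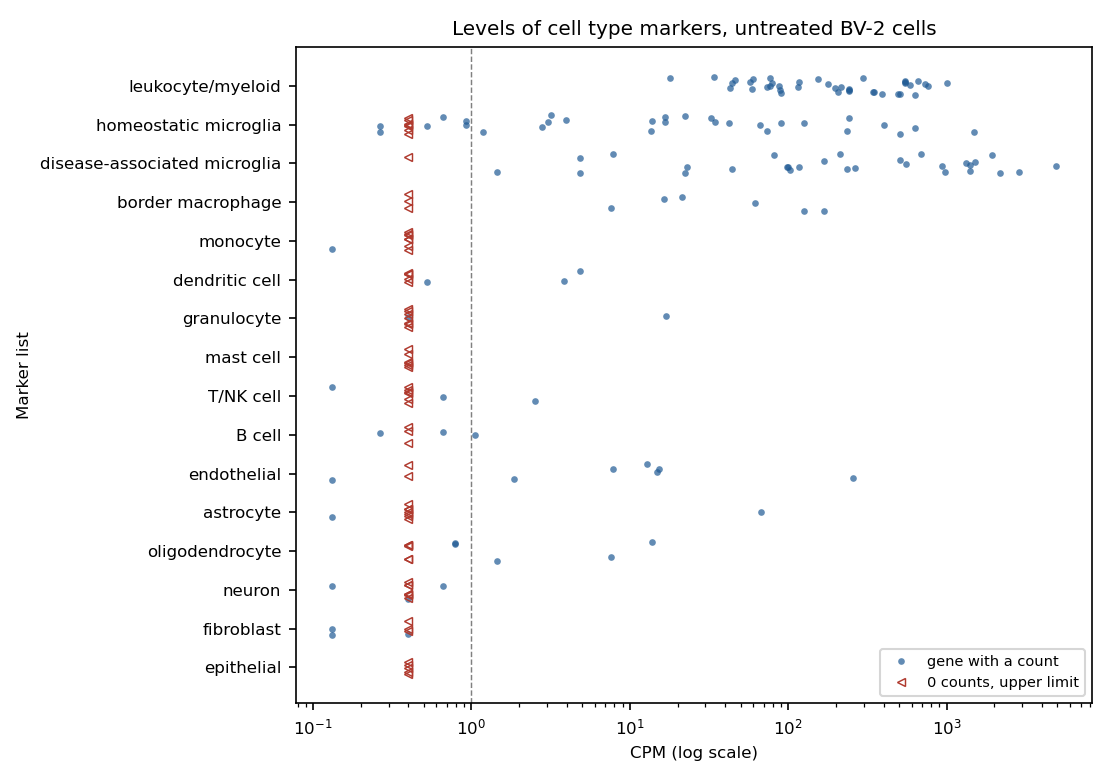
Each point is 1 gene of a cell type marker list, placed by its CPM on a log axis, with a small vertical scatter for visibility. Open triangles mark genes with 0 counts at their one-sided limit of 0.396 CPM. Leukocyte and disease-associated lists lie mostly above 10 CPM, homeostatic markers spread from 0 to 1489.7 CPM, and most markers of other lineages lie at 0.

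Transcription factors of the myeloid lineage followed the same order, with lineage factors high and the microglial factor Sall1 at 0. Of 77 listed, 67 stood at 1 CPM or more, with a median of 44.8 CPM. Behind Spi1 came Atf4, of the amino acid response, at 695 CPM, Klf6 at 419, the antioxidant factor Nfe2l2 at 345 and Jun at 241. Cebpb had 185 CPM, Mitf 153, Irf5 97.1 and Irf8, a partner of PU.1, 77.2 CPM. Spi1 exceeded Irf8 by 13.1 times in counts (12 to 14.2). Sall1, Egr3, Ets1 and Myb were at 0. Gfi1, Egr1, Irf4, Egr2, Fosb and Sall3 had counts under 1 CPM.

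Receptors for growth factors and cytokines were led by Csf1r, of the macrophage lineage. Of 43 listed, 32 stood at 1 CPM or more, or 74.4% against 51.8% of all protein-coding symbols. After Csf1r and Flt1 the highest were Ifnar2 at 232 CPM, Tnfrsf1b at 121, Ltbr at 100 and Igf1r at 88.0. Partner chains differed in level. Ifnar2 exceeded Ifnar1 (12.9 CPM), the other chain of the type I interferon receptor, by 17.9 times (14.6 to 22.2). Ifngr2 (41.4 CPM) exceeded Ifngr1 (18.5) by 2.24 times, Tgfbr2 (85.1) exceeded Tgfbr1 (16.6) by 5.12 times (4.22 to 6.25), and Tnfrsf1b exceeded Tnfrsf1a (63.8) by 1.89 times. Csf1r itself exceeded Csf1, the gene of its ligand, at 23.1 CPM, by 27.3 times (23.5 to 31.9), while Il34, the alternative ligand, had 0.132 CPM.

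Receptors of the interleukin 1 family were uneven. Il1r1, which binds interleukin 1, had 1 count, the decoy Il1r2 and the interleukin 18 receptor Il18r1 had 0, and the shared chain Il1rap had 1.19 CPM, while Il1rl1, the receptor for interleukin 33, had 20.7 CPM. Those for interleukins 10, 4 and 6 were present, with Il10rb at 82.4 CPM, Il10ra at 5.54, Il4ra at 21.9, Il6ra at 22.6 and Il6st at 10.7. The GM-CSF receptor chains Csf2ra and Csf2rb had 71.9 and 40.1 CPM. Csf2rb2, a close copy of Csf2rb, had 16.9, and 0% of the 3′ words of either, a measure defined below, were shared with another gene. Il12rb1, Il13ra1, Tgfbr3, Flt3 and Kit were at 0. Csf3r, Il21r and Il27ra had counts under 1 CPM.

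Chemoattractant receptors were few. Of 34 listed, 10 stood at 1 CPM or more and 17 were at 0. C3ar1, the receptor for complement fragment C3a, had 748 CPM (729 to 768) and held 77.2% of all counts of the list (Clopper-Pearson 76.2 to 78.2). The next were the sphingosine phosphate receptors S1pr2 and S1pr1 at 40.4 and 40.2 CPM, C5ar1 at 38.5, Cxcr4 at 34.6, Ptafr at 21.4, Cxcr3 at 15.7 and Cx3cr1 at 13.8. Of 10 numbered CC chemokine receptors only Ccr10 reached 1 CPM, at 1.19 (0.543 to 2.25). Ccr1, Ccr2, Ccr3, Ccr4, Ccr6, Ccr7 and Ccr8 had 0 counts.

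Pattern recognition genes were broadly present. Of 43 listed, 37 stood at 1 CPM or more, led by the endotoxin co-receptor Cd14 at 548 CPM. Of 12 Toll-like receptors 8 stood at 1 CPM or more. Tlr4, for endotoxin, had 88.1 CPM, Tlr13, for bacterial ribosomal RNA, 71.1, and Tlr7, for single-stranded RNA, 42.1. Tlr3, Tlr6, Tlr2, Tlr8 and Tlr1 followed at 9.50, 8.84, 7.25, 5.01 and 3.69 CPM, Tlr9 and Tlr5 had 0.396 and 0.132, and Tlr11 and Tlr12 were at 0. Ly96, the MD-2 subunit that TLR4 needs to bind endotoxin, was low beside Cd14, at 8.18 CPM. All 9 adaptors and kinases downstream stood between 12.4 CPM (Ticam1) and 96.0 CPM (Irak3, an inhibitor).

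The inflammasome parts were uneven. The DNA sensor Aim2 had 133 CPM, the protease Casp1 137, the adaptor Pycard 85.2, Casp4 54.9 and the pore-forming Gsdmd 30.1, while the sensor Nlrp3 had 8.18 CPM (6.27 to 10.5). The cytosolic DNA enzyme Cgas had 123 CPM and its effector Sting1 15.2. Rigi and Ifih1, sensors of viral RNA, had 59.2 and 19.7 CPM. The C-type lectin Clec4d had 128 CPM. Zbp1 was at 0 and the sensor Nod1 had 0.396 CPM.

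Phagocytic, Fc and scavenger receptors were present for 37 of 42 genes. Beyond C3ar1, Fcer1g, Cd68 and Trem2, the high members were Sirpa, the receptor for the CD47 signal that restrains engulfment, at 439 CPM and Lrp1, an endocytic receptor, at 354. Then came the scavenger receptors Scarb2 at 173 CPM and Msr1 at 159, with Marco at 61.3 and Cd36 at 2.64. All 4 Fc gamma receptors were found, the activating Fcgr1 at 129.8 CPM, Fcgr4 at 101 and Fcgr3 at 52.0, and the inhibitory Fcgr2b at 4.88. Cd163, Axl and Olr1 were at 0, and Treml2 and Itgb3 stood under 1 CPM.

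Among nucleotide receptors the ATP-gated channels P2rx7 and P2rx4 led, at 82.7 CPM (76.3 to 89.4) and 44.8 CPM. P2ry6, for uridine diphosphate, had 34.4 CPM, P2ry2 15.4, P2ry1 4.09 and P2ry13 1.19. P2ry12, the ADP receptor of homeostatic microglia, had 0.659 CPM, Adora2a 0.659 and Adora2b 0.264. Entpd1 and Nt5e, the enzymes that break ATP down to adenosine, were at 0, as were Adora1, Adora3, P2rx1, P2rx2, P2rx5, P2ry4 and P2ry10. P2rx3, P2ry14 and P2rx6 had 0.528, 0.528 and 0.132 CPM. In all 6 of the 21 genes of this list stood at 1 CPM or more, and 10 at 0.5 CPM or more.

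Ion channels known from microglia were present for 13 of 16 genes. Clic1 had 415 CPM, Trpm7 121, the mechanosensor Piezo1 117, Stim1 88.0, Trpv2 68.1 and the inward rectifier Kcnj2 59.7. Kcnk13, the THIK-1 channel, had 26.2 CPM. Kcna5 and Panx1 were at 0 and Trpv4 had 0.923 CPM.

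Of 35 receptors for transmitters 7 stood at 1 CPM or more, 3 at 5 CPM or more and 24 at 0. They matter here because trazodone, the drug given with particles in some of the other libraries, is known to bind serotonin, histamine and adrenergic receptors and the serotonin transporter. Of 13 such target genes 3 had counts, all above 1 CPM. Adra1a, an alpha-1 adrenergic receptor, had 18.3 CPM (15.4 to 21.6), the serotonin receptor Htr2b 12.3 (9.90 to 15) and the histamine receptor Hrh1 2.90 (1.82 to 4.39). Htr2a, Htr2c, Htr1a, Htr7, Slc6a4, Adra1b, Adra1d, Adra2a, Adra2b and Adra2c had 0 counts. Outside this list the adrenergic receptor Adrb1 had 2.90 CPM, the cannabinoid receptor Cnr2 2.90 and the dopamine receptor Drd1 1.45.

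Sensors and defences against particles and foreign chemicals were present in part. Of 29 genes 22 stood at 1 CPM or more. The antioxidant enzyme genes Prdx1, Gpx1 and Sod1 had 865, 689 and 380.4 CPM, the metal-binding Mt1 366, Nfe2l2 345 and Sod2 275. Keap1, which restrains the product of Nfe2l2, had 149 CPM, and Hmox1 48.8. Ahr, the receptor for aromatic hydrocarbons, had 0 counts, whereas its partner Arnt had 40.9 CPM, its repressor Ahrr 2.77 and its target Tiparp 104. Cyp1a1, Cyp1b1, Nqo1, Gsta4 and Mt2 were at 0, and Gstp1 had 0.264 CPM, with 69.3% of its 3′ words shared with other genes.

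Of 55 cytokines and growth factors 26 stood at 1 CPM or more and 22 were at 0, a share of 47.3% against 51.8% of all protein-coding symbols. Grn, for the lysosomal growth factor progranulin, had 2231 CPM and held 57.0% of the counts of the list (Clopper-Pearson 56.4 to 57.5). The next was Il1rn, the antagonist of interleukin 1, at 499.9 CPM (484 to 516). Pdgfb, Mif, Igf1 and Hbegf had 209, 206, 167 and 105 CPM. Tnf had 74.3 CPM (68.2 to 80.6), Ebi3, a shared cytokine subunit, 59.7, and Tgfb1 59.3.

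Interleukins were low apart from the antagonist. Il1b had 2.77 CPM (1.71 to 4.23), so Il1rn exceeded it by 180.5 times in counts (118 to 292). Il18 had 17.7 CPM, Il15 6.59, Il16 5.14 and Il10 2.11 (1.21 to 3.43). Il6, Il1a and Il27 had 0.659, 0.396 and 0.264 CPM. Il12a, Il12b, Il23a, Il33 and the T-cell cytokines Il2, Il3, Il4, Il5, Il13, Il17a and Ifng were at 0. Ifnb1 had 1 count. Bdnf, for a nerve growth factor of the brain, was at 0 and Gdnf had 3.82 CPM.

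Of 34 chemokines 15 stood at 1 CPM or more and 18 were at 0. The share at 1 CPM or more was 44.1%, against 51.8% of all protein-coding symbols. Ccl3 and Ccl4, which draw monocytes and T cells, had 196 CPM (186 to 206) and 121 CPM (113 to 129). Ccl9 had 124 CPM, Ccl2, the ligand of CCR2, had 80.3, the neutrophil attractant Cxcl2 49.3 and Ccl7 37.9. Ccl3, Ccl9, Ccl4 and Ccl2 together held 74.7% of chemokine counts (Clopper-Pearson 73.5 to 75.8). Below these stood Pf4 at 21.5 CPM, Ccl12 at 13.1, Cxcl14 at 12.7, Ccl5 at 11.9, Ccl25 at 9.89, Cx3cl1 at 7.91, the interferon-induced Cxcl10 at 5.28, Ccl6 at 4.88 and Ccl24 at 2.11. Ccl17 had 0.659 CPM.

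The chemokines with 0 counts were Ccl1, Ccl8, Ccl11, Ccl19, Ccl20, Ccl22, Ccl28, Cxcl1, Cxcl3, Cxcl5, Cxcl9, Cxcl11, Cxcl12, Cxcl13, Cxcl15, Cxcl16, Xcl1 and Ppbp. Ccr1 and Ccr2, receptors of several of the ligands found, had 0 counts. Among inflammatory enzymes the NADPH oxidase subunit Cybb had 546 CPM, Alox5ap 262, Ptgs1 34.3, Mmp12 27.4, the acute-phase gene Saa3 23.3 and Nos2 17.7 (14.8 to 20.9). Ptgs2 had 1 count and Mmp13 0.791 CPM. Alox5, Arg1, Chil3, Retnla, Mmp2, Mmp8 and Mmp14 were at 0.

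**Figure D4:**
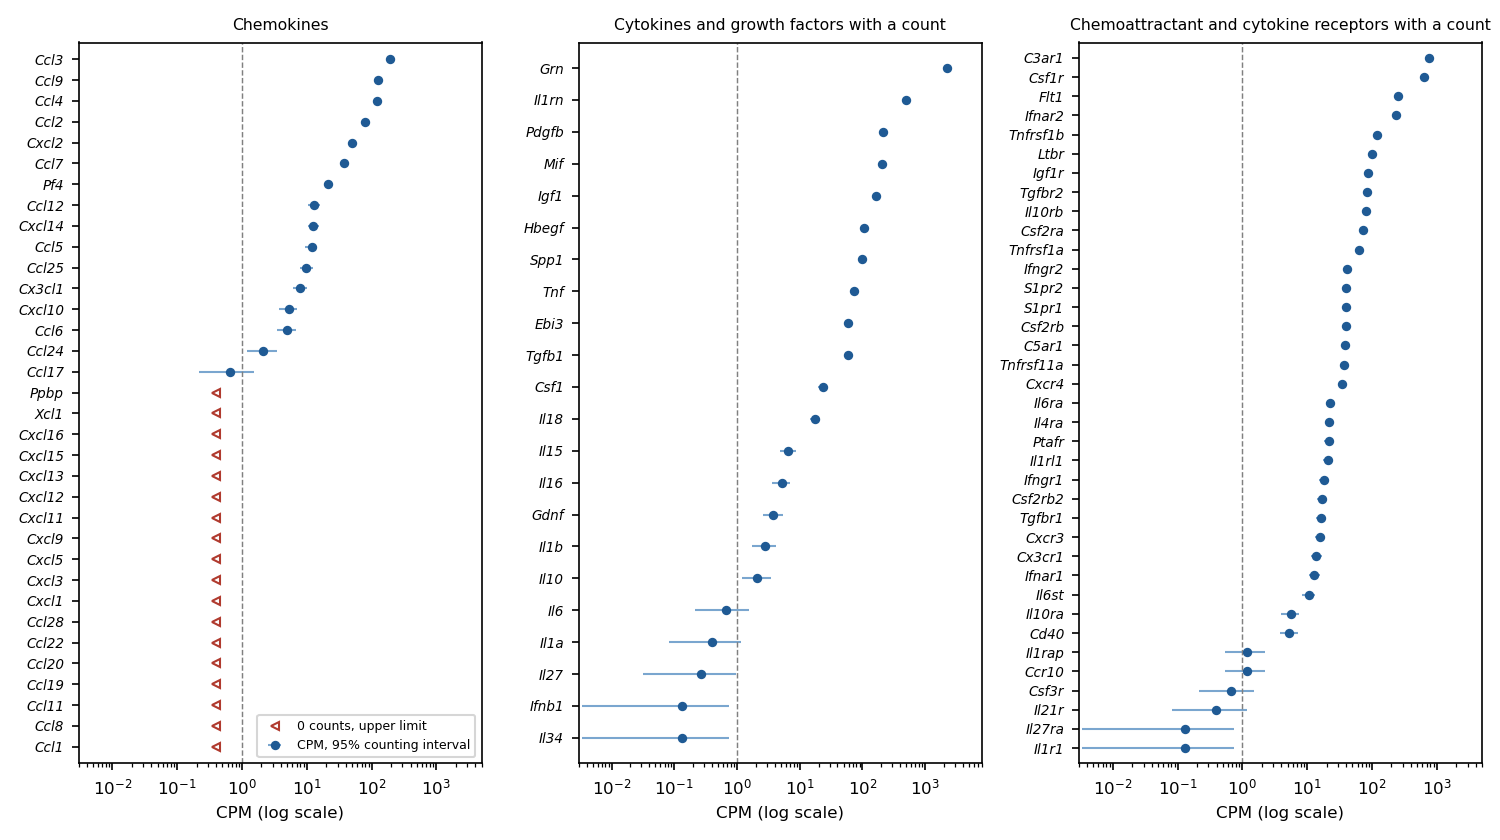
Levels of chemokines (left), of cytokines and growth factors with a count (middle) and of chemoattractant and cytokine receptors with a count (right), for genes named in the text, in CPM on a log axis with 95% counting intervals and a dashed line at 1 CPM. Open triangles are chemokines with 0 counts, at their one-sided limit of 0.396 CPM. Grn at 2231 CPM, Ccl3 at 196 CPM and C3ar1 at 748 CPM lead their panels.

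The complement component C1q, which tags material for engulfment, was found with all its 3 chains. C1qa had 73.6 CPM, C1qc 42.3 and C1qb 13.6. C1qa exceeded C1qb by 5.42 times in counts (4.38 to 6.75). C3 had 24.0 CPM and properdin Cfp 46.7, while C2, C4b, Cfb, Cfd and Cd55 were at 0 and C1s1 had 1 count. For Cfb 91.1% of the 3′ words were shared with another gene.

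The cells carried the RNA of active division. All 41 DNA replication genes and all 41 mitosis genes stood at 1 CPM or more, with medians of 63.2 and 123 CPM. Top2a, which untangles chromosomes, had 1372 CPM (1346 to 1399), at rank 39 of the whole library. Mki67, the common marker of cycling cells, had 447 CPM, Birc5 341, the kinetochore motor Cenpe 325, Cdk1 296, Bub3 296 and Plk1 265. The lowest were Cks2 at 8.05 CPM and Cdc25c at 5.01.

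In the replication list the MCM helicase genes ranged from 72.1 CPM for Mcm4 to 499 CPM for Mcm7, and the ligase Lig1, the polymerase Pola1, the methyltransferase Dnmt1, the reductase Rrm1 and the helicase gene Mcm3 had 344, 304, 285, 284 and 216 CPM. Pcna, the sliding clamp, had 58.8 CPM and Rrm2 22.7. The lowest member was Orc1 at 8.97 CPM. In G1 the kinase Cdk6 (747 CPM) exceeded Cdk4 (122) by 6.13 times in counts (5.72 to 6.58), and the cyclin Ccnd2 (543) exceeded Ccnd1 (284) by 1.91 times. Inhibitors were found beside them. Cdkn1a, known as p21, had 542 CPM (525 to 558), Cdkn2a 131, Cdkn2d 56.3 and Cdkn2b 1.71 (0.913 to 2.93). Trp53 had 55.9 CPM and its regulator Mdm2 168.

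**Figure D5:**
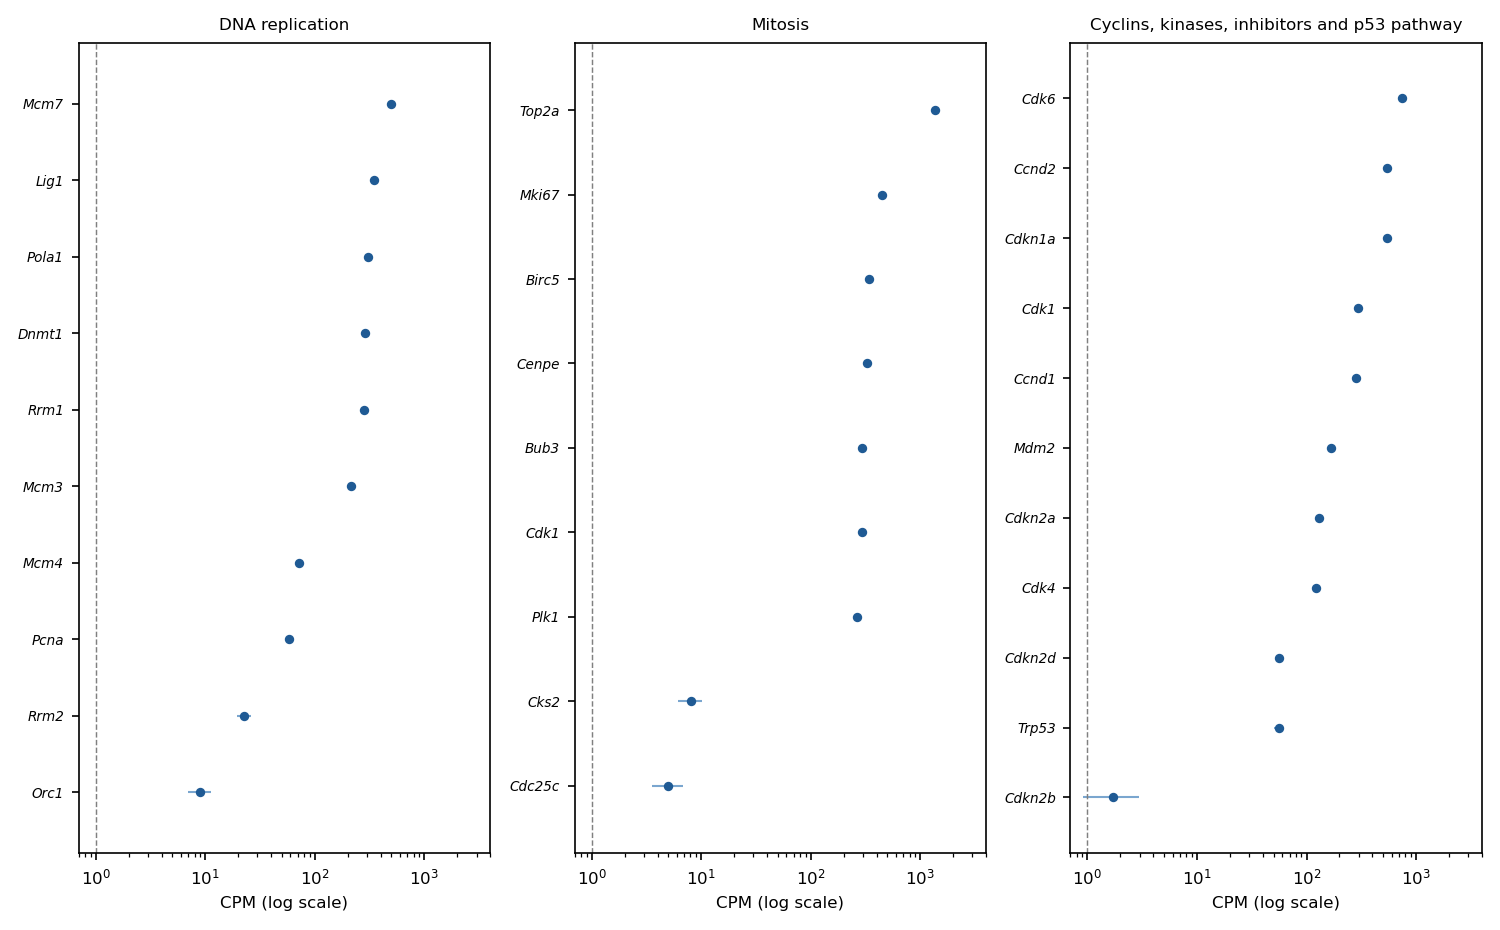
Levels of DNA replication genes (left), mitosis genes (middle) and cyclins, kinases, inhibitors and p53 pathway genes (right), for genes named in the text, in CPM on a log axis with 95% counting intervals and a dashed line at 1 CPM. Mcm7 at 499 CPM, Top2a at 1372 CPM and Cdk6 at 747 CPM are the highest of their panels, and the lowest gene shown is Cdkn2b at 1.71 CPM.

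Growth-signalling genes of the kinds used as oncogenes were mostly present, with 13 of 15 at 1 CPM or more. The kinase genes Araf and Braf had 29.9 and 49.3 CPM, and the transcription factor gene Myc had 10.9 (8.72 to 13.6). Mycn and Mycl were at 0, Max, the partner of MYC, had 223 CPM and Mxd1 5.41. Downstream of these kinases stood Map2k2 at 128 CPM, Map2k1 at 50.5 and Mapk3 at 101, and upstream Nras at 127 and Hras at 121. Viral gene copies were not measured, since the table lists mouse symbols.

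Lysosomal genes were among the most abundant groups, with 32 of 34 at 1 CPM or more, 27 at 100 or more and a median of 473 CPM. Of all 40879 symbols listed, 2030 reached 100 CPM. Of 11 cathepsins 10 were present, and Ctsk held 44.2% of their counts (Clopper-Pearson 43.9 to 44.5). Cathepsin K is best known from osteoclasts, where it digests bone collagen, and it exceeded Ctsd by 2.12 times here. Outside the cathepsins, Psap, Npc2 and Lamp1 had 1227, 962 and 928 CPM, the proton pump subunit Atp6v1a 1083 and the protease inhibitor Cstb 887. Ctse was at 0 and Atp6v0c had 0.264 CPM.

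Iron was represented above all by its store, ferritin. Fth1 had 4888 CPM and Ftl1 1858 CPM, a ratio of 2.63 in counts (2.58 to 2.68), although 68.1% of the 3′ words of Ftl1 were shared with other genes. The transporters Slc11a2 and Slc11a1 had 275 and 228 CPM, the transferrin receptor Tfrc 173 and the reductase Steap3 138. Ferroportin, Slc40a1, the exporter, had 2.77 CPM (1.71 to 4.23), and Hamp, for the hormone hepcidin, was at 0. In lipid handling Lpl was followed by Soat1, which stores cholesterol as ester, at 485 CPM, Lrp1 at 354, Fabp5 at 262, Fasn at 256 and Scd2 at 255. Abca1 had 93.4 CPM, Scd1 12.5, Apoe 7.78 and Apoc1 0.132.

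Genes of actin and movement were present for 30 of 30, with a median of 359 CPM. Behind Actb and Arpc1b came Tmsb4x, which binds free actin, at 1437 CPM, Arpc2 at 1205, the filament gene Vim at 1124 and Msn at 721. In glycolysis 21 of 23 genes stood at 1 CPM or more, with Pkm at 591 CPM, Ldha at 205, Gpi1 at 196, the lactate transporter Slc16a1 at 168, Tpi1 at 138 and Hk3 at 100.4. Ldhb and the glucose transporter Slc2a3 were at 0.

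Some genes that nearly every cell uses were low as well. All 40 genes of a list of ubiquitous genes stood at 1 CPM or more, with a median of 239 CPM and the elongation factors Eef2 and Eef1a1 at 1149 and 1046, but 6 were under 30 CPM. Among them were Gapdh at 25.5, Pgk1 at 25.1, Actg1 at 16.6, Tbp at 16.0 and Eif4a2 at 15. The glycolytic Eno1 and Aldoa had 13.5 and 1.06 CPM. The tetraspanin Cd81 had 0.264 CPM, and the mitochondrial messenger RNAs COX3, ATP6, ATP8, ND3 and ND4L were at 0 and COX2 had 1 count, beside ND2 at 16347 CPM.

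To see where copies could draw reads away, the last 500 bases of a transcript of each gene were cut into 75-base words. A word counted as shared if another GENCODE M21 gene holds it on the same strand. Words held on the opposite strand were left out of these shares. They made up 100% for Csf1r, Ccnd1 and Cdk4, among others, whose counts enter ratios given above. For Gapdh 84.0% of the words were shared, with 77 other genes, and for Eno1 62.0%. For Actg1, Aldoa, Cd81, Atp6v0c, Tbp and Eif4a2 the share was 0. Of the 13 homeostatic markers under 1 CPM 0 had over 10% of words shared, and of the 18 chemokines at 0 only Ccl19 did (51.6%). Ribosomal protein genes had a median of 36.3% shared, with 53 of 79 over 10%. The part of shared words in any single low value was not tested, and a gene at 0 is reported as not counted and not as unexpressed.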

How the data were processed

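The deposited file of the untreated library holds raw counts per gene symbol, as whole numbers from 0. STAR, edgeR and build GRCm39 are listed without versions in the submitters' processing notes. No source used here names the counting program, its annotation or its strand setting, so overlapping genes, antisense genes and close copies are less certain. CPM was the count over the library total. Intervals were exact Poisson for levels and Clopper-Pearson for shares and count ratios, at 95%. They cover counting error only, since the labels name no molecular identifiers. Python 3.11.15, scipy 1.17.1 and pandas 2.3.3 were used. Interval coverage was tested on simulated Poisson counts, which checks the calculation only, since such counts vary as the interval assumes. Gene types came from RefSeq GRCm38.p6 (37683 symbols matched by symbol or synonym), and transcript ends and lengths from GENCODE M21, of an earlier build than the counts.

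The 45 gene lists with 1160 names were chosen with earlier results of these data known, and 2 names were matched through an alias and 1 was not. Genes named are the 30 most abundant, the highest and the uncounted or low members of each list, and the members of the homeostatic, chemokine and oncogene lists. Some genes that this rule takes are counted in their lists but not reported here by name. Other genes named, the promoters printed and 3 further lists (osteoclast, germline and embryonic, mitochondrial genome) were chosen after their values were seen. No edgeR or other test was run, because 1 library has no replicate. Alternatives were other limits, totals and a ranking by length.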

Additional observations from a re-analysis of the deposited data

How the results depend on the processing

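The 7 counts of genes at 1 CPM or more changed by less than 1.5 times at limits of 0.5 or 5 CPM, with the lower interval bound as the limit, without mitochondrial symbols and small non-coding RNAs in the total, and without the 10 most abundant symbols. Homeostatic markers ran from 18 to 27 and chemokines from 13 to 16. The same limits, added for the other lists after the data were seen, moved some by over 1.5 times: purinergic receptors had 10 in place of 6 genes at 0.5 CPM, oligodendrocyte, B cell and T and NK cell markers 5, 2 and 2 in place of 3, 1 and 1, and transmitter receptors 3 in place of 7 at 5 CPM. Dendritic, B cell and T and NK cell markers had 0 at 5 CPM. The share of counts in the 10 most abundant symbols was 9.77% without mitochondrial symbols and small non-coding RNAs, against 17.87% in the main count, and 17.9% over symbols with at least 10 counts. These totals multiply every CPM by 1.14 or 1.22, so ratios between genes stay as they are. Division by transcript length kept 12 of the 30 most abundant symbols among the first 30, while 26 of those 30 had a length. Levels under about 1 CPM rest on 7 counts or fewer. No paired analysis was possible because there is 1 library and no comparison.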

Other observations

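Antigen presentation genes were uneven within both classes. B2m, the light chain of class I molecules, had 1319 CPM. The class I heavy chains H2-D1 and H2-K1 had 488 and 158 CPM, each with 0% of its 3′ words shared on the same strand. The peptide-loading gene Tapbp had 303 CPM. Psmb8 and Tap2, which make and carry the peptides, had 61.5 and 48.8 CPM, while H2-T23, H2-Q4 and Cd1d1 had counts under 1 CPM and H2-Q7 was at 0. The class II chains H2-Aa, H2-Ab1 and H2-Eb1 and their activator Ciita had 0 counts, and the invariant chain Cd74 had 11.5 CPM (9.19 to 14.2). Other genes of the class II pathway were counted, with H2-DMa at 32.6 CPM, H2-DMb1 at 21.5 and H2-Oa at 10.3. The co-stimulators Cd86, Cd40 and Cd80 had 20.4, 5.28 and 2.64 CPM. Of 30 interferon-stimulated genes 28 stood at 1 CPM or more with a median of 19 CPM, led by Ifi44 at 171, Rtp4 at 163, Isg15 at 77.9, Bst2 at 70.6, and Rsad2 at 69.1, while Mx1 and Zbp1 were at 0. Ribosomal protein genes, 79 of 79 above 1 CPM, held 3.03% of counts, from Rpl23a at 1203 CPM through Rps26 (1146), Rps14 (1115), Rpl37 (1046), Rps21 (1046) and Rpl8 (1009.6) to Rps3a1 at 7.78. Integrins were led by Itgb1 at 404 CPM and Itga4 at 106, the hyaluronan receptor Cd44 had 310.3 and the tetraspanin Cd9 117. Itga1, Itga2, Vcam1 and Thy1 were at 0, and Itga3 and Itgb3 had counts under 1 CPM.

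Some levels stood out against their surroundings, and these genes were chosen after their values were seen. Rhox5, an X-linked homeobox gene of the reproductive tract and placenta, had 806 CPM (786 to 827), at rank 102, with 0% of its 3′ words shared, while 15 other germline and embryonic genes, among them Rhox6, Rhox9, Dazl and Pou5f1, had 0 counts. Of 17 osteoclast genes 10 stood at 1 CPM or more, a share of 58.8% that is near the 51.8% of all protein-coding symbols. Beside Ctsk at 6075 CPM they included Tcirg1 at 194, Mitf at 153, Src at 52.2, the master factor Nfatc1 at 42.6 and the receptor Tnfrsf11a (RANK) at 36.8. Acp5, Atp6v0d2, Itgb3, Ocstamp, Oscar and Siglec15 had 0.528, 0.528, 0.264, 0.132, 0.132 and 0.132 CPM and Calcr was at 0. Xist, Tsix and the Y-linked genes Ddx3y, Uty, Kdm5d and Eif2s3y all had 0 counts.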
